A study of Homo sapiens with 6 samples.

Results

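Interferon-stimulated genes are the transcripts that cells switch on when interferons reach them. A set of 35 such genes was named by symbol, and 33 of them had a row among the 18969 genes of the deposited table. MX2 and IFITM2 were not analysed here. Of the 33, 31 had enough counts to be tested, and OAS2 and RSAD2 did not. The samples were HK-2 cells, a cell line grown from the proximal tubule of a human kidney, and all of them received cisplatin at 20 µM, a DNA-crosslinking drug that damages the tubule. There were 3 libraries labelled as overexpression of NFE2L1, a transcription factor known for driving proteasome genes, and 3 control libraries labelled wild type. No untreated cells and no interferon-treated cells were among the samples, so the comparison is within cisplatin. The labels name neither the vector nor an empty-vector control, and nothing in them shows that each library is a culture of its own. The p-values therefore reflect library-to-library spread alone, and part of it may be technical.

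Type I and type III interferons bind receptors that activate the kinases JAK1 and TYK2, which phosphorylate STAT2 and other factors of its family. STAT2 works with IRF9 in a complex that binds the interferon-stimulated response element, and the gamma-activated sequence serves the response to interferon gamma. The proteins made from the target genes block viruses at entry, at RNA sensing, in translation and at budding. Many of the genes keep a basal level in epithelial cells, and several are known to respond to DNA damage as well.

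The libraries labelled overexpression held 16865460 to 23458333 counted reads and the controls 19821519 to 22365895. NFE2L1 stood at 244.5, 743.3 and 339.2 CPM (reads of a gene per 1e+06 reads, scaled between libraries by the TMM method) in libraries 1, 2 and 3 labelled overexpression, against 234.0, 253.2 and 245.9 CPM in controls 1, 2 and 3. Library 1 labelled overexpression thus lay inside the control range, and every direction given below includes it. The log2 change of NFE2L1 was 0.86 (SE 0.35, edgeR adjusted p = 0.115). The epithelial keratins KRT8 and KRT18 were abundant, at means of 553.6 and 517.0 FPKM (reads scaled per gene length and depth) in the libraries labelled overexpression and 436.3 and 370.6 FPKM in controls. The mature proximal tubule markers GGT1 and AQP1 were nearly absent, at 0.281 and 0.0863 FPKM in the libraries labelled overexpression and 0.432 and 0.0509 FPKM in controls. Of 14 leukocyte markers 5 had a row, with a summed level of 1.17 to 3.26 FPKM in the libraries labelled overexpression and 1.71 to 2.97 FPKM in controls.

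Promoter letters are shown because most of the members, though not all, carry the element through which interferon acts. RefSeq gives a stretch of 250 bases before to 50 bases after a start on GRCh38.p14 for 28 of the 33 members. On either strand, the interferon response element, searched as 2 GAAA repeats with any 2 bases between them, occurred in at least 1 such stretch of 21 of the 28 members, and in 4.38% of the 27305 genes of that table. The gamma-activated sequence, TTCNNNGAA, occurred in 10 of the 28 members and in 9.38% of all genes, and it overlapped the interferon response element in stretches of BST2, IFI27, IFITM1 and MX1. The antioxidant response element core, TGACNNNGC, which NFE2L1 and its relatives bind with small MAF proteins, occurred in 7 of the 28 members, against 16.1% of all genes. A match is only a match of letters. Members that were higher and members that were lower in the libraries labelled overexpression both carried the response element, as the 2 full stretches below show, with the matched letters in capitals. ISG15 was the member with the largest rise, and its chr1:1013247-1013546 stretch on the plus strand holds 2 overlapping copies. SAMD9 was the member with the largest fall, and its stretch is chr7:93117930-93118229 on the minus strand.
ISG15: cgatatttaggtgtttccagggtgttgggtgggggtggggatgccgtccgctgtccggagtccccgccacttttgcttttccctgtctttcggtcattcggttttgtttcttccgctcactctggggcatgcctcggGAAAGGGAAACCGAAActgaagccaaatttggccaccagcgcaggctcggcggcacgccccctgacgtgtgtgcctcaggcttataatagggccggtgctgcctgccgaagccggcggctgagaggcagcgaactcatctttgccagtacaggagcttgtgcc
SAMD9: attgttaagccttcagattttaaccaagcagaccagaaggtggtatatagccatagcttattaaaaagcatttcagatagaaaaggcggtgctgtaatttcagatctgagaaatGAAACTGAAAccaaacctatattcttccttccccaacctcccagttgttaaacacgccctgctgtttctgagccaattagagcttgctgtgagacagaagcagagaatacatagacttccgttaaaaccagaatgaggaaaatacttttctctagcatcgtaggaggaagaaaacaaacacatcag

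For the other members that changed, 30 bases around a match compare the element side by side, each read 5′ to 3′ on the gene's own strand. BST2 (chr19:17405741-17405770, minus) and IFITM3 (chr11:320876-320905, minus) rose, while EIF2AK2 (chr2:37156967-37156996, minus), PARP14 (chr3:122680800-122680829, plus), PARP9 (chr3:122564322-122564351, minus) and IL18BP (chr11:71999540-71999569, plus) fell. DTX3L, which did not pass, is printed because its stretch is the same 30 bases as that of PARP9, read on the plus strand.
BST2: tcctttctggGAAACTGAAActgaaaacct
IFITM3: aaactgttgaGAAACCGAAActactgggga
EIF2AK2: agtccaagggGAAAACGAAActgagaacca
PARP14: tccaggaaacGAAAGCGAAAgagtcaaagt
IL18BP: gttaaaaagtGAAAGTGAAAtagagggtcg
PARP9: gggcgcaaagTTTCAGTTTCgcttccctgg
DTX3L: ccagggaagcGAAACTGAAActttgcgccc

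IFI35 and SAMD9L changed too and had no match in these stretches, and IFIT2 is named only. The core letters GAAACTGAAA were thus identical in SAMD9, which fell, in BST2, which rose, and in DTX3L, which did not pass.

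The set as a whole did not move one way. At an adjusted p under 0.05 (edgeR quasi-likelihood test, Benjamini-Hochberg over all 15046 genes tested), 4 of the 31 tested members were raised and 7 lowered in the cells labelled overexpression. That is 11 members, where 19.1% of all genes passed, 9.62% upward and 9.49% downward. The 4 that rose were ISG15, IFITM3, IFI35 and BST2. The 7 that fell were SAMD9, SAMD9L, IL18BP, PARP14, EIF2AK2, IFIT2 and PARP9. The median log2 change was -0.21 over the 31 members and 0.031 over all genes tested. The groups did not overlap in 15 of the 31 members, where 42.6% of all genes did not overlap. None of the 11 calls held without control 1 or without control 2, when 1 gene (0.00643%) and 0 genes of all kinds passed (edgeR). Unadjusted p lay under 0.05 for 3962 and 3863 genes there, 14 and 12 of them members. The cells were measured in bulk, so a smaller share of cells that make a transcript and less of it in each cell cannot be told apart.

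**Figure D1:**
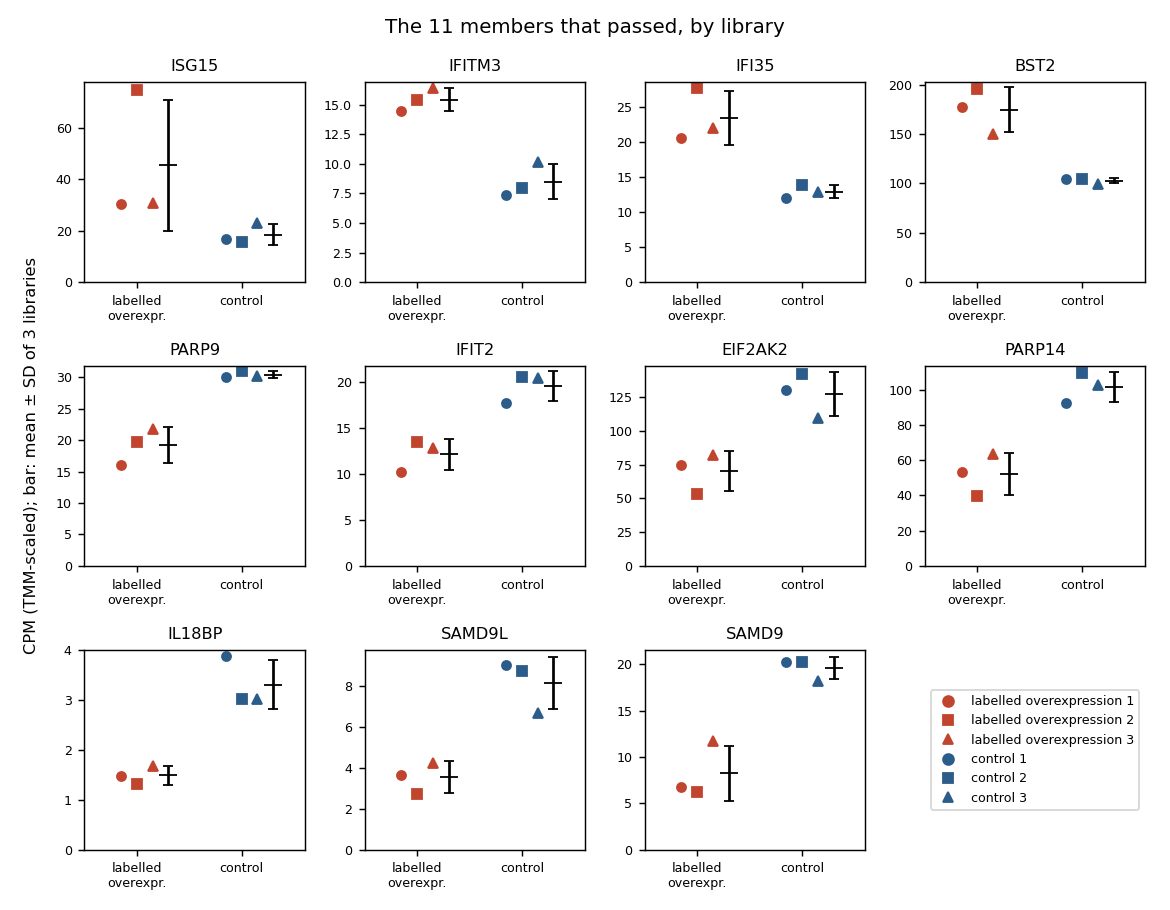
CPM of the 11 members that passed, 1 panel per gene, with libraries labelled overexpression (red) left of controls (blue), one symbol per replicate number and a bar for the mean ± SD of 3 libraries. In every panel the 2 groups do not overlap, and ISG15 has its highest value, 74.8 CPM, in library 2 labelled overexpression.

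The level of the members spanned several orders of magnitude, and the scarcest, OAS2 and RSAD2, held too few reads to be tested. Averaged over the 6 libraries and scaled per length, 12 members reached at least 10 FPKM, 14 lay between 1 and 10 FPKM and 7 lay under 1 FPKM. BST2, a membrane tether that holds budding virus on the cell surface, was the most abundant at 165.6 ± 15.2 FPKM in the libraries labelled overexpression and 107.4 ± 1.31 FPKM in controls (SD, n = 3 each), and it gave 31.9% of the FPKM summed over the members. IFI16, a nuclear sensor of foreign DNA, came next at 38.8 ± 11.5 FPKM in the libraries labelled overexpression and 67.4 ± 8.36 FPKM in controls. ISG15 was next, followed by IFITM3, IFIT3 and IRF1 at averages of 19.4, 18.6 and 18.2 FPKM over the 6 libraries. Several of the genes used as classical reporters of an interferon response were at the bottom. MX1 held 18, 10 and 15 reads in libraries 1, 2 and 3 labelled overexpression and 13, 27 and 27 reads in controls 1, 2 and 3. RSAD2, which encodes the antiviral enzyme viperin, held 0, 1 and 1 reads in the libraries labelled overexpression and 2, 1 and 6 reads in controls. OAS2 held 4, 5 and 7 reads in the libraries labelled overexpression and 7, 11 and 5 in controls. No difference in RSAD2 or OAS2 was detectable at this depth.

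**Figure D2:**
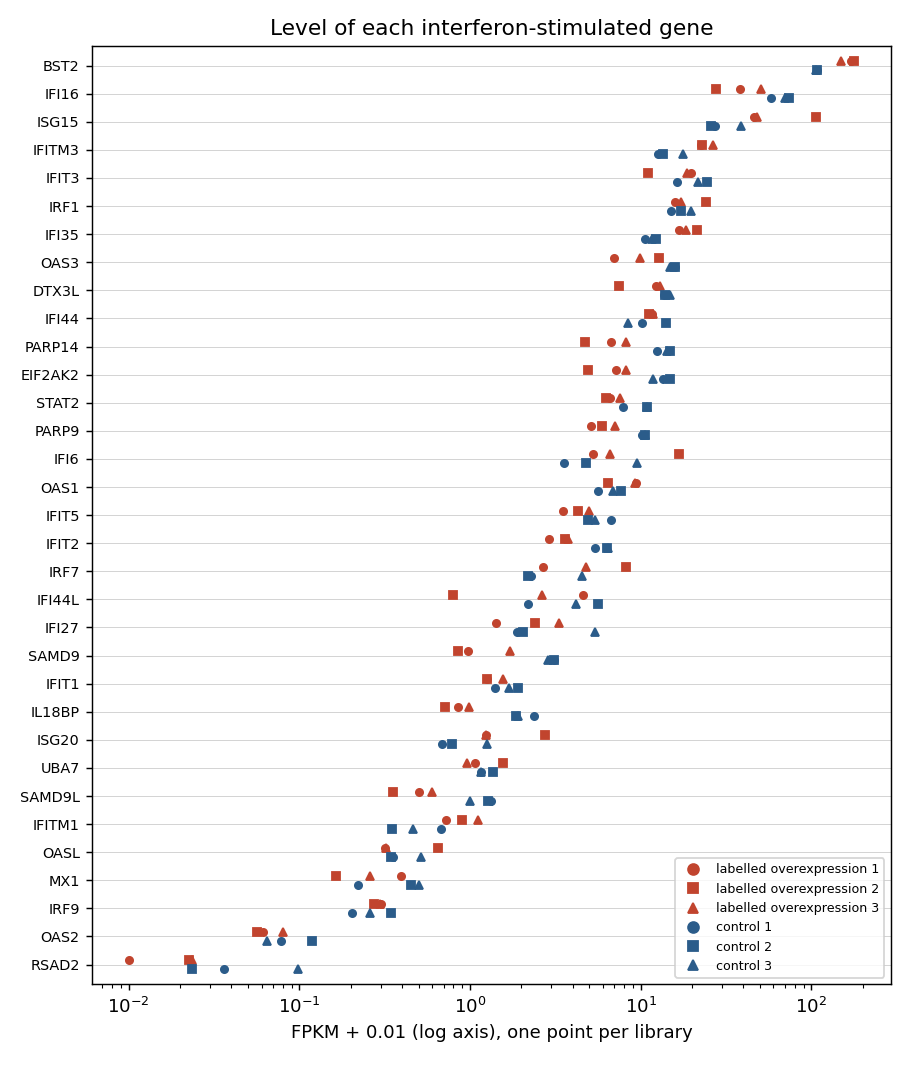
FPKM plus 0.01 of each of the 33 members on a log axis, one point per library, libraries labelled overexpression in red above controls in blue, members ordered by their average. BST2 stands at the top above 100 FPKM and OAS2 and RSAD2 at the bottom, under 0.2 FPKM in all 6 libraries.

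Among the ligands that start the response, IFNE, IFNL3 and IFNL4 were the 3 of 22 interferon genes with a row, and each had fewer than 10 reads in every library, so none was tested. IFNL3 averaged 0.225 FPKM in the libraries labelled overexpression and 0.178 FPKM in controls, and IFNL4 averaged 0.136 FPKM in the libraries labelled overexpression and 0.225 FPKM in controls. Of 5 receptor genes tested, IFNAR1, a chain of the type I interferon receptor, fell to 57.4 ± 9.73 CPM in the libraries labelled overexpression, against 104.3 ± 2.71 CPM in controls (SD, n = 3 each, log2 change -0.86, SE 0.17, edgeR adjusted p = 0.0153), and the other 4 did not pass. Of 7 genes of JAK-STAT signalling, the kinase genes JAK1 and JAK2 fell by 0.83 and 1.12 on the log2 scale (edgeR adjusted p = 0.0338 and 0.0411) and 0 rose, where 9.49% of all genes fell and 9.62% rose.

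None of the 4 transcription factor genes among the members passed. STAT2, a signal-activated factor of the type I response, had 30.3, 30.02 and 33.8 CPM in libraries 1, 2 and 3 labelled overexpression, against 33.2, 46.0 and 45.2 CPM in controls 1, 2 and 3. Library 3 labelled overexpression stood above control 1, and the log2 change was -0.40 (SE 0.19, edgeR adjusted p = 0.162). IRF9, the DNA-binding part of that complex, had few counted reads. They numbered 8, 10 and 10 in the libraries labelled overexpression and 7, 12 and 8 in controls. A protein-coding gene without a symbol overlaps IRF9 over 5188 bases on the same strand and had 3.33 reads on average. Reads that fall in both genes may not have been counted for IRF9, so its level is uncertain. IRF7, the master factor for interferon alpha genes, had 5.31, 17.3 and 9.31 CPM in the libraries labelled overexpression and 4.17, 4.03 and 8.18 CPM in controls, so the spread within each group was wide. Its log2 change was 0.97 (SE 0.45, edgeR adjusted p = 0.157). It passed without library 1 labelled overexpression, at 1.28 (edgeR adjusted p = 0.0467). IRF1, a factor that also answers interferon gamma and DNA damage, averaged 71.6 ± 19.2 CPM in the libraries labelled overexpression and 58.6 ± 7.05 CPM in controls (SD, n = 3 each), a log2 change of 0.29 (SE 0.21, edgeR adjusted p = 0.357), which turned to -0.17 once FPKM sums were made equal.

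ISG15 (chromosome 1, 1001138 to 1014540, plus strand, GRCh38.p13) rose most among the members that passed. It encodes a ubiquitin-like protein that is joined to other proteins. It had 30.5, 74.8 and 30.97 CPM in libraries 1, 2 and 3 labelled overexpression, against 16.7, 15.8 and 23.1 CPM in controls 1, 2 and 3. All 3 libraries labelled overexpression lay above all controls, with library 2 far above the others. The log2 change was 1.29 (SE 0.36, edgeR adjusted p = 0.0380), and without library 2 labelled overexpression it was 0.72 and still passed (edgeR adjusted p = 0.0316). UBA7, the enzyme that activates ISG15 for conjugation, was at 3.64, 5.61 and 3.18 CPM in the libraries labelled overexpression and 3.66, 4.29 and 3.55 CPM in controls, which overlap fully (log2 change 0.11, SE 0.29, edgeR adjusted p = 0.810).

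Of the 3 membrane restriction factors, BST2 and IFITM3 rose and IFITM1 did not pass. BST2 (chromosome 19, 17402939 to 17405630, minus strand) had 177.1, 195.9 and 150.4 CPM in libraries 1, 2 and 3 labelled overexpression, against 104.4, 103.9 and 99.5 CPM in controls 1, 2 and 3. The controls lay within a few CPM of each other and all 3 libraries labelled overexpression stood well above them (log2 change 0.77, SE 0.15, edgeR adjusted p = 0.0155). IFITM3 (chromosome 11, 319676 to 329475, minus strand), which keeps viruses from fusing with endosomal membranes, had 14.5, 15.4 and 16.4 CPM in the libraries labelled overexpression, against 7.40, 7.93 and 10.2 CPM in controls. These groups did not overlap either (log2 change 0.86, SE 0.22, edgeR adjusted p = 0.0282). Its neighbour IFITM1 lies 4.40 kb away on the other strand and held 8, 14 and 16 reads in the libraries labelled overexpression and 10, 5 and 6 reads in controls. Its log2 change was 1.02 with an SE of 0.44, which did not pass (edgeR adjusted p = 0.132). The IFITM genes are near copies of each other, so reads may be split between them.

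The genes named IFI share a name and no common function. IFI35 (chromosome 17, 43006740 to 43014456, plus strand), an interferon-induced leucine zipper protein, had 20.6, 27.7 and 21.9 CPM in the libraries labelled overexpression, against 12.1, 13.9 and 12.8 CPM in controls. The groups were well apart (log2 change 0.86, SE 0.20, edgeR adjusted p = 0.0227). IFI16 (chromosome 1, 158999968 to 159055155, plus strand) had 115.4, 86.9 and 146.7 CPM in the libraries labelled overexpression, against 160.9, 204.6 and 190.2 CPM in controls. The groups did not overlap, yet the log2 change of -0.67 missed the threshold (SE 0.21, edgeR adjusted p = 0.0525). IFI6, a mitochondrial protein that restrains apoptosis, had 4.45, 15.0 and 5.38 CPM in the libraries labelled overexpression and 2.75, 3.72 and 7.24 CPM in controls. Control 3 stood above 2 of the 3 libraries labelled overexpression (log2 change 0.86, SE 0.52, edgeR adjusted p = 0.263). IFI27 was at 1.05, 1.87 and 2.39 CPM in the libraries labelled overexpression and 1.29, 1.40 and 3.59 CPM in controls, and the sign of its difference changed with the libraries kept.

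IFI44L and IFI44 lie 3.65 kb apart on chromosome 1 and did not run together. IFI44L had 27.9, 5.00 and 15.5 CPM in libraries 1, 2 and 3 labelled overexpression and 12.2, 31.2 and 22.9 CPM in controls 1, 2 and 3. Its lowest library was thus library 2 labelled overexpression, and library 1 labelled overexpression stood above 2 controls (log2 change -0.46, SE 0.54, edgeR adjusted p = 0.579). IFI44 had 20.4, 20.6 and 20.2 CPM in the libraries labelled overexpression, and 16.5, 22.8 and 13.3 CPM in controls (log2 change 0.22, SE 0.23, edgeR adjusted p = 0.531). The ratio of IFI44L to IFI44 reads ran from 0.243 to 1.37 over the libraries labelled overexpression and from 0.740 to 1.71 over controls. The RefSeq stretch of IFI44L carries the same 30 bases at 2 places, chr1:78620274-78620303 and chr1:78620365-78620394 on the plus strand, with the response element in capitals.
IFI44L: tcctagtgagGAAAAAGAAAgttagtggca

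The IFIT genes encode antiviral proteins, some of which bind foreign RNA at its 5′ end. They form a row on chromosome 10 in the order IFIT2, IFIT3, IFIT1, IFIT5. IFIT2 (89283694 to 89309271, plus strand) was the member of the row that passed, with 10.2, 13.4 and 12.8 CPM in the libraries labelled overexpression, against 17.7, 20.5 and 20.4 CPM in controls. All libraries labelled overexpression lay below all controls (log2 change -0.69, SE 0.20, edgeR adjusted p = 0.0446), though this was the weakest call among the 11. IFIT3, the most abundant of the row, had 49.0, 29.04 and 44.9 CPM in the libraries labelled overexpression and 37.7, 56.0 and 48.4 CPM in controls, which overlap. IFIT1 and IFIT5 overlapped as well, and IFIT1, IFIT3 and IFIT5 had log2 changes of -0.17, -0.21 and -0.27 (edgeR adjusted p = 0.644, 0.562 and 0.390). LIPA lies across IFIT2, IFIT3 and IFIT1 on the opposite strand at 1789 reads on average, and the sources used here do not say whether strand was used in counting.

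The OAS enzymes sense double-stranded RNA and make the messenger that activates RNase L. OAS1, OAS3 and OAS2 stand in a row on chromosome 12, and none of the 3 tested OAS genes passed. OAS1 had 15.9, 11.6 and 15.2 CPM in the libraries labelled overexpression and 8.82, 12.0 and 10.5 CPM in controls (log2 change 0.44, SE 0.23, edgeR adjusted p = 0.198). OAS3, only 4.83 kb away, had 47.9, 92.0 and 66.3 CPM in the libraries labelled overexpression and 101.0, 100.3 and 91.8 CPM in controls (log2 change -0.51, SE 0.23, edgeR adjusted p = 0.147). With an offset for length alone OAS1 (1.63 kb) stood at 0.13 and OAS3 (6.60 kb) at -0.012 on the log2 scale (edgeR adjusted p = 0.765 and 0.982). Reads of OAS3 per read of OAS1 were 3.02, 7.97 and 4.37 in libraries 1, 2 and 3 labelled overexpression, against 11.5, 8.33 and 8.78 in controls 1, 2 and 3, a ratio free of scaling between libraries that was chosen after the values were seen. Without library 2 labelled overexpression OAS3 passed (edgeR adjusted p = 0.0124). OASL, a catalytically inactive relative, had 1.05, 2.29 and 1.03 CPM in the libraries labelled overexpression and 1.08, 1.05 and 1.56 CPM in controls.

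The SAMD9 pair fell most. SAMD9 and SAMD9L encode large cytoplasmic proteins that restrict poxviruses and slow translation and growth, and the genes sit 12.0 kb apart on the minus strand of chromosome 7. SAMD9 (93099513 to 93118023) had 6.79, 6.27 and 11.7 CPM in libraries 1, 2 and 3 labelled overexpression, against 20.3, 20.2 and 18.2 CPM in controls 1, 2 and 3. SAMD9L (93130056 to 93148385) had 3.64, 2.71 and 4.26 CPM in the libraries labelled overexpression, against 9.04, 8.72 and 6.67 CPM in controls. In both genes all 3 libraries labelled overexpression lay far below the lowest control. The log2 changes were -1.24 (SE 0.27, edgeR adjusted p = 0.0188) for SAMD9 and -1.20 (SE 0.27, edgeR adjusted p = 0.0208) for SAMD9L. Reads of SAMD9 per read of SAMD9L were 1.86, 2.31 and 2.75 in the libraries labelled overexpression and 2.25, 2.32 and 2.73 in controls, so the ratio of the pair overlapped between groups. The genes are paralogs and may share reads.

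EIF2AK2 encodes PKR, the kinase that stops translation when it meets double-stranded RNA. EIF2AK2 (chromosome 2, 37099210 to 37157522, minus strand) had 74.7, 53.4 and 82.2 CPM in the libraries labelled overexpression, against 129.8, 141.7 and 109.7 CPM in controls. The groups did not overlap (log2 change -0.86, SE 0.20, edgeR adjusted p = 0.0221). IL18BP (chromosome 11, 71998613 to 72005715, plus strand), a secreted decoy that neutralises interleukin-18, was scarce and fell. It had 1.48, 1.31 and 1.68 CPM in the libraries labelled overexpression, against 3.87, 3.02 and 3.03 CPM in controls, so every value in the libraries labelled overexpression lay far below the lowest control (log2 change -1.15, SE 0.29, edgeR adjusted p = 0.0286). IL18BP overlaps NUMA1 on the opposite strand over 2852 bases, and NUMA1 had 1611 reads on average against 51.8 for IL18BP, so its count is uncertain. ISG20, an exonuclease of RNA, had 2.04, 4.77 and 1.97 CPM in the libraries labelled overexpression and 1.03, 1.18 and 1.85 CPM in controls. The groups were just apart and the log2 change of 1.12 did not pass (SE 0.44, edgeR adjusted p = 0.102).

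PARP9, DTX3L and PARP14 lie together on chromosome 3. DTX3L and PARP9 form a complex that joins ubiquitin to proteins at DNA breaks and in the interferon response, and PARP14 is a mono-ADP-ribosyltransferase. PARP14 (122680839 to 122730840, plus strand) fell furthest, with 53.4, 39.7 and 63.7 CPM in libraries 1, 2 and 3 labelled overexpression, against 92.6, 109.3 and 102.5 CPM in controls 1, 2 and 3 (log2 change -0.96, SE 0.20, edgeR adjusted p = 0.0170). PARP9 (122527924 to 122564577, minus strand) had 16.1, 19.7 and 21.8 CPM in the libraries labelled overexpression, against 29.99, 31.01 and 30.2 CPM in controls (log2 change -0.66, SE 0.19, edgeR adjusted p = 0.0390). Neither gene had a library labelled overexpression inside its control range. DTX3L had 73.9, 47.3 and 75.4 CPM in the libraries labelled overexpression and 76.3, 76.8 and 80.3 CPM in controls, so that the groups did not overlap while 2 of the 3 libraries labelled overexpression lay close under the lowest control (log2 change -0.25, SE 0.20, edgeR adjusted p = 0.404). Reads of PARP14 per read of DTX3L were 0.723, 0.838 and 0.844 in the libraries labelled overexpression, against 1.21, 1.42 and 1.28 in controls, with no overlap. For PARP9 per DTX3L the ratios were 0.218, 0.417 and 0.288 in the libraries labelled overexpression and 0.393, 0.404 and 0.376 in controls, with library 2 labelled overexpression above all controls. These ratios were chosen after the values were seen. PARP9 and DTX3L overlap by 240 bases on opposite strands at their starts. The response element printed above lies across the edge of that overlap, at the start of DTX3L.

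**Figure D3:**
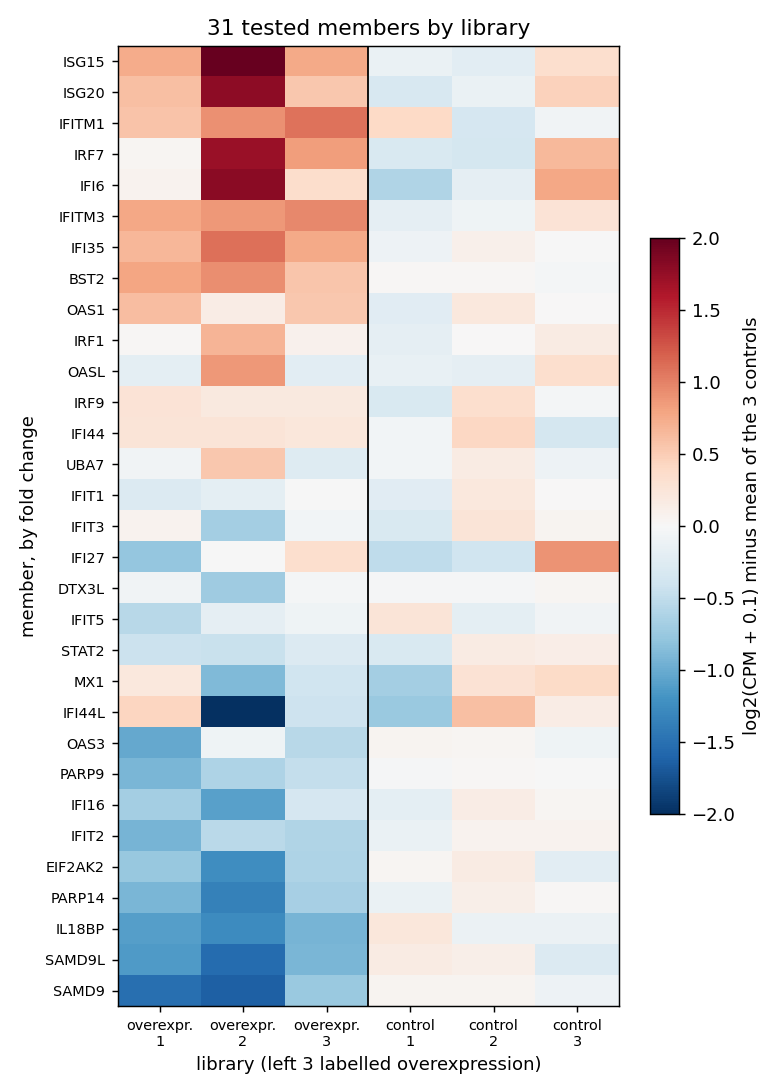
Difference of log2(CPM + 0.1) from the mean of the 3 controls for the 31 tested members (rows, ordered by fold change) in each library (columns, libraries labelled overexpression left of the line). The second column holds the deepest colours at both ends, including ISG15, ISG20, IRF7 and IFI6 upward and IFI44L, SAMD9 and SAMD9L downward.

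Library 2 labelled overexpression held an extreme value in more of the tested members than any other library. It held the highest value of the 6 libraries in 9 of the 31 tested members and the lowest in 11. How often it did so over all genes tested was not counted, so this is not shown to be particular to the members. Library 1 labelled overexpression held the highest in 1 and the lowest in 6, library 3 labelled overexpression the highest in 2 and the lowest in 2, and controls 1, 2 and 3 held the highest in 5, 11 and 3 and the lowest in 7, 3 and 2. The members' median stood -0.066, -0.085 and -0.059 from the control mean on the log2 scale in libraries 1, 2 and 3 labelled overexpression, and -0.14, 0.049 and 0.018 in controls 1, 2 and 3, so these overlapped. Without library 1 labelled overexpression, where NFE2L1 was not raised, 5 members rose and 4 fell, where 8.18% and 8.57% of all genes did. IL18BP, IFIT2 and PARP9 did not then pass, and IRF7 did.

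The members that rose were short and GC-rich, and most of those that fell were long. Gene length, as implied by counts over FPKM, was 0.611 to 1.18 kb for the 4 that rose and 1.70 to 9.98 kb for the 7 that fell. Of 7 tested members under 1.2 kb, 6 had a higher level in the libraries labelled overexpression, IFI27 being the exception. Of 10 members over 4 kb, 0 had a higher level. Transcript GC content was 56.9% to 63.4% for the 4 and 36.1% to 55.4% for the 7. Over the whole table the genes that rose had a median length of 1.33 kb and those that fell 4.99 kb, so the members shared a pattern of all genes.

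**Figure D4:**
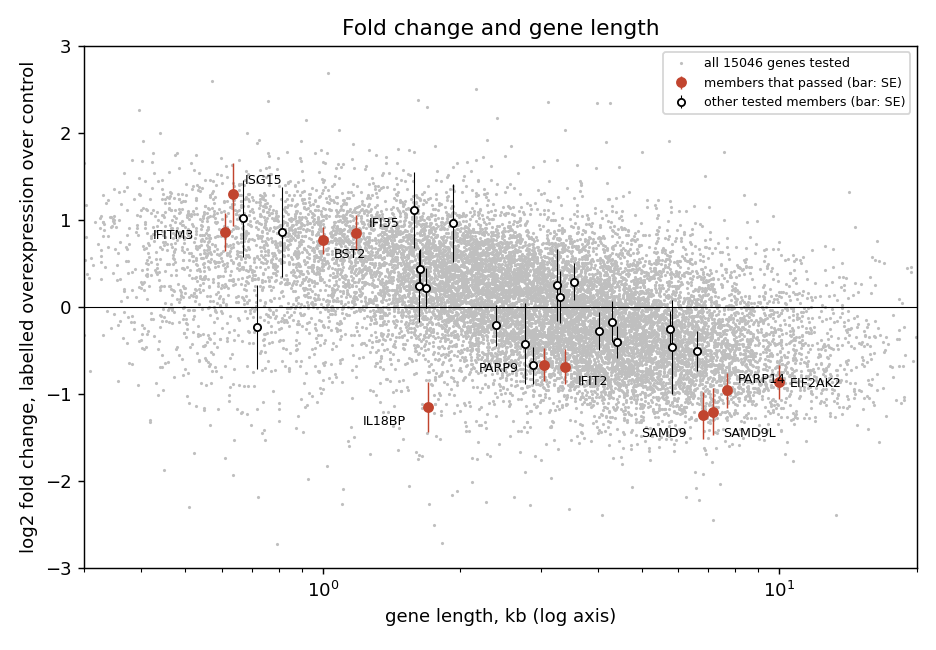
Log2 change of libraries labelled overexpression over controls against gene length in kb (log axis) for all 15046 genes tested (grey) and the 31 tested members (red where they passed, open where they did not, bars are SE). The 4 members that rose lie between 0.611 and 1.18 kb, and the 7 that fell lie between 1.70 and 9.98 kb, with IL18BP the shortest of these.

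With an offset that removes each library's smooth trend over length and GC content, 0 of the 31 members passed, where 0.691% of all genes did (104 genes in edgeR). Unadjusted p was under 0.05 in 2947 genes, among them 5 members. ISG15 then had a log2 change of 0.31 (edgeR adjusted p = 0.539), BST2 0.072 (0.838), IFITM3 0.15 (0.705) and IFI35 0.15 (0.673). SAMD9 stood at -0.53 (edgeR adjusted p = 0.255), SAMD9L at -0.50 (0.255), PARP14 at -0.39 (0.247), PARP9 at -0.40 (0.236), IFIT2 at -0.35 (0.381) and EIF2AK2 at -0.12 (0.717). IL18BP moved the other way, to -1.59 (SE 0.31, edgeR adjusted p = 0.0508), and with an offset for length alone it was the single member that passed (-1.45, edgeR adjusted p = 0.0316), where 6.73% of all genes did. When every library's FPKM was set to 1 common sum, the median of all genes moved to -0.35. On that scale 0 members rose and 11 fell, where 4.29% of all genes rose and 33.6% fell (limma). ISG15, IFITM3, IFI35 and BST2 stood there at 0.72, 0.41, 0.38 and 0.31 (limma adjusted p = 0.0896, 0.0881, 0.0943 and 0.0797).

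**Figure D5:**
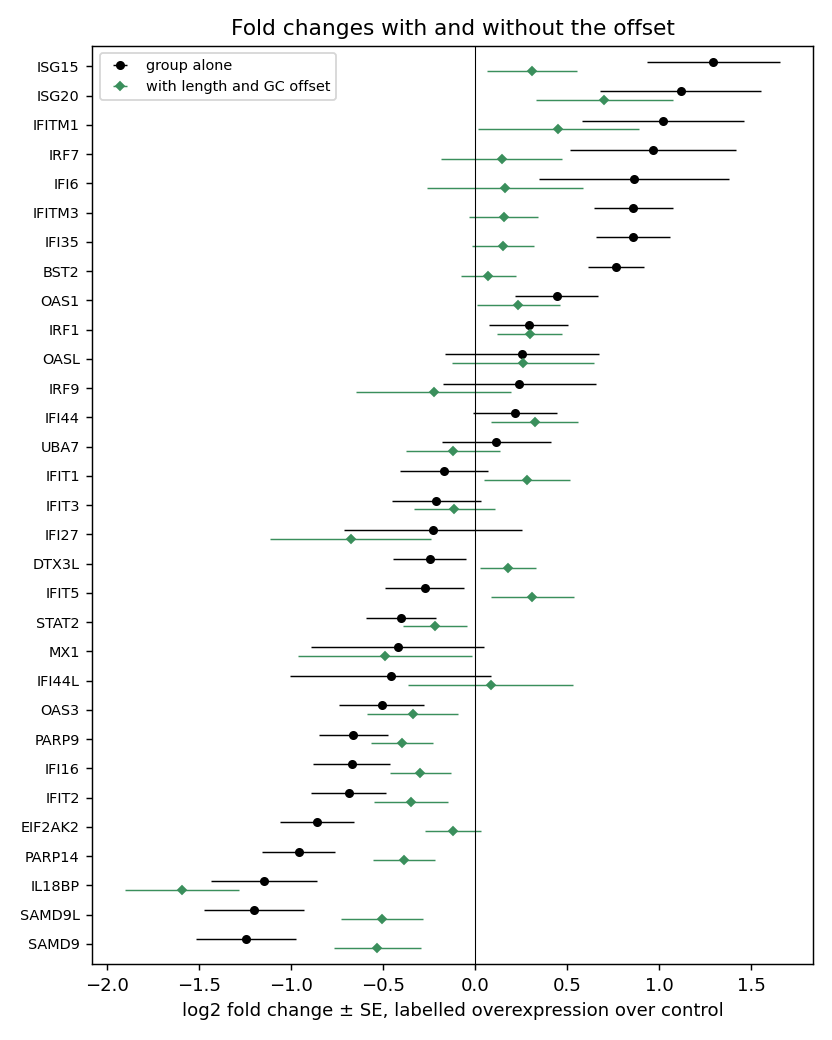
Log2 change ± SE of the 31 tested members, libraries labelled overexpression over controls, from the fit on group alone (black circles) and from the fit with the length and GC offset (green diamonds). Most diamonds lie nearer to 0 than their circles, with BST2 moving to 0.072 and IL18BP moving out to -1.59.

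Outside the set, other genes of the interferon pathway gave 4 that rose and 7 that fell of 84 tested, again where 19.1% of all genes passed. Among 13 nucleic acid sensors and adaptors tested, the transcription factor gene IRF3 rose to 75.7 ± 15.7 CPM in the libraries labelled overexpression, against 44.2 ± 10.5 CPM in controls (SD, n = 3 each, log2 change 0.78, edgeR adjusted p = 0.0432). TBK1, the kinase that activates IRF3, fell to 34.5 ± 6.33 CPM in the libraries labelled overexpression, against 63.9 ± 5.77 CPM in controls (log2 change -0.89, edgeR adjusted p = 0.0178). Of 15 brakes on the response, the SUMO ligase gene PIAS4 rose by 0.58 on the log2 scale, and the phosphatase genes PTPN11 and PTPN1 fell by 0.93 and 0.55 (edgeR adjusted p = 0.0479, 0.0179 and 0.0494). Of 44 further interferon-stimulated genes, IFI27L2 (1.19) and LGALS3BP (0.60) rose and the guanylate-binding protein gene GBP3 (-0.71) fell (edgeR adjusted p = 0.0137, 0.0354 and 0.0275). The median log2 change was -0.28 for the receptors, -0.53 for JAK-STAT signalling, 0.020 for the sensors, -0.43 for the brakes and -0.077 for the further interferon-stimulated genes, beside 0.031 for all genes. With the length and GC offset 0 of these genes passed.

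The authors' deposited table lists 4 of the 33 members upward and 8 downward at its own adjusted p under 0.05, where 9.28% of its 18969 genes are listed upward and 10.9% downward. IFI16 is the member added there, at a log2 change of -0.70 and an adjusted p of 0.0233 in the authors' deposited table. The DESeq2 Wald test run here on the same counts passed 1760 genes upward and 2074 downward, the same numbers as in that table. The deposited list is therefore not separate evidence. Those genes were 11.8% and 13.9% of the 14923 to which DESeq2 gave an adjusted p.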

How the data were processed

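The labels' protocols give 2 µg of RNA per library and a kit that keeps strand. Reads were trimmed with Trimmomatic 0.36 and GRCh38 was used, per the submitters' processing notes, and the file header gives positions on GRCh38.p13. For the aligner, the counter and its strand setting, the sources used here give nothing. The authors deposited raw read counts and FPKM per gene and library. The authors also deposited log2 fold changes and p-values, whose test is not stated, and these are used only where their table is named.

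Counts of genes kept by filterByExpr were tested with edgeR 4.0.16 in R 4.3.3 (TMM, glmQLFit, glmQLFTest, group alone), adjusted by Benjamini-Hochberg over all genes, with a threshold of 0.05. Each SE is the size of the log2 change over the square root of F. The biological coefficient of variation was 0.249. Offsets were smooths of each library's deviation on length, and on length and GC content, fitted with mgcv 1.9.3. GC content, from each gene's longest transcript in GENCODE 29, matched 98.45% of genes. Alternatives used DESeq2 1.42.0 and limma 3.58.1, the latter on log2(FPKM + 1) and log2(FPKM + 0.1) for genes of at least 1 FPKM in 3 libraries.

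The members and lists were chosen with earlier results of these data known. Values per library are given for members that passed, the 10 most abundant, their families or neighbours except IFIT1 and IFIT5, and the transcription factors. From each other list of pathway genes, those that passed are named, or else values are given for the 2 most abundant. The cell type markers named did not follow this rule. The fit was tested on simulated data, with changes put only into the more abundant genes and no trend over length or GC content. Of the changes put in there, the fit called 0 of 67 at 1.5-fold, 32 of 67 at 2-fold and 65 of 66 at 4-fold. It also made 11 false calls over 14799 genes. These shares do not cover scarce members such as IRF9 and MX1, and the false calls do not cover such a trend. A member that did not pass is therefore not shown to be unchanged. Promoter stretches are from RefSeq on GRCh38.p14. A gene of the JAK-STAT list is not reported here by name.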

Additional observations from a re-analysis of the deposited data

How the results depend on the processing

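When single libraries were left out, 0 to 13 members, 0 to 3649 genes of all kinds and 0 to 16 other pathway genes passed, and the members' median ran from -0.28 to -0.076. With the length offset 1 member, 1013 genes and 4 pathway genes passed at a members' median of -0.062, and with the length and GC offset 0, 104 and 0 did at 0.072. Libraries of equal replicate number did not vary together, with correlations of their deviations of 0.0061, -0.51 and 0.088. Deviations were taken from each group's own mean, so these correlations depend on each other and cannot show whether the libraries were paired. Between unequal numbers the correlations ran from -0.50 (overexpression 1 with control 3) to 0.60 (overexpression 1 with control 2). With a replicate block 0 members, 0 genes and 0 pathway genes passed in edgeR, at 4413 genes with an unadjusted p under 0.05, and adding the length offset also gave 0 in each, at a members' median of -0.062. Pathway genes that passed numbered 20 with the DESeq2 Wald test and 17 with limma on log2(FPKM + 1). On rescaled FPKM 4703 genes and 31 pathway genes passed, at a members' median of -0.51, and that median was -0.32 on log2(FPKM + 0.1).

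Changes of sign touched members that did not pass. On FPKM, UBA7 was at -0.027 and -0.056 with pseudocounts of 1 and 0.1, and UBA7, IFI44 and IRF1 were at -0.19, -0.18 and -0.17 after rescaling. With the length offset IFIT1, DTX3L, IFI44 and IRF9 were at 0.078, 0.11, -0.11 and -0.088, and with the replicate block added at 0.083, 0.10, -0.060 and -0.073. With the length and GC offset IFIT1, IFIT5, IFI44L, DTX3L, IRF9 and UBA7 were at 0.28, 0.31, 0.085, 0.18, -0.23 and -0.12. With single libraries left out IFI27 ran from -0.51 to 0.40, OASL from -0.24 to 0.45 and UBA7 from -0.18 to 0.27. The cause of these changes was not tested.

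Depth limits RSAD2, OAS2, IRF9, IFITM1 and MX1, which held at most 27 reads in any library. The count of IRF9 is also uncertain because another gene overlaps it on the same strand.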
